A study of Homo sapiens with 18 samples.

Results

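RepSox was compared with its solvent DMSO in doxycycline-treated (DOX) HT-29 iZEB1 cells. HT-29 is an established human colorectal cancer line, and in HT-29 iZEB1 the addition of DOX switches on ZEB1. The comparison holds 6 of the 18 RNA-seq libraries of the study, chosen by their labels alone: 3 with DOX and DMSO and 3 with DOX and RepSox. RepSox was used at 10 µM for 24 h, and both groups had DOX at 1 µg per ml, for 24 h by the treatment protocol and 48 h by the design text. The other 12 libraries are HT-29 iZEB1 with DMSO or RepSox without DOX, and SW620, another colorectal cancer line, with DMSO or RepSox without DOX, with 3 libraries in each group. Both groups carry the inducible ZEB1 and had DOX, and the counts do not separate its transcripts from those of the cells' own gene. What promoter drives it, and whether the line is 1 clone, is not given in the sources used here, and HT-29 cells without it were not analysed here. Nothing in the labels says that replicates came from separate cultures, and p-values therefore reflect the scatter among libraries, possibly technical.

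RepSox inhibits ALK5, the type I TGF-β receptor kinase encoded by TGFBR1. An active receptor phosphorylates SMAD2 and SMAD3, which enter the nucleus with SMAD4 and switch on target genes, among them the inhibitory SMAD7. ZEB1 is a zinc-finger transcription factor of the epithelial-mesenchymal transition (EMT), in which epithelial cells lose their junctions. It represses junction and other epithelial genes through E-box sequences in their promoters, and TGF-β is a known inducer of ZEB1.

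The 6 libraries held 36.8 to 39.8 M counts each. On the first principal component of their log2 CPM, which carried 81% of the variance, the DMSO libraries lay between -31.6 and -31.3 and the RepSox libraries between 31.2 and 31.7. Levels are in CPM, counts per M of the TMM-adjusted library size. DMSO replicate 2 and RepSox replicate 1 stood apart from the others on the second component, at -15.1 and -15, while the other 4 lay between 4.85 and 10.1. The count of called genes without both is in the closing section. Markers of colon epithelium, 12 genes, summed to 4700 to 5190 CPM with DMSO and 10200 to 11100 CPM with RepSox, and KRT8 and KRT18 held most of this. Of the 12, 8 were called higher and 2, CDH17 and KRT20, lower. The intestinal markers CDX2 (means 0.42 and 0.52 CPM) and GPA33 (0.64 and 0.49 CPM) were below 1 CPM with DMSO and with RepSox. Of 12 fibroblast markers, which summed to 2.67 to 3.89 CPM with DMSO and 1.33 to 2.04 CPM with RepSox, COL1A2, PDGFRA and POSTN were at 0 in both groups. Leukocyte markers summed to 1730 to 1760 CPM and 1160 to 1370 CPM, nearly all of it LYZ, with CD3D and MS4A1 at 0 in both groups. Endothelial markers summed to 44.3 to 51.1 CPM and 38.8 to 50.7 CPM, mostly ESAM, with TIE1 and EMCN at 0 in both groups.

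RepSox changed the level of 8864 of 16978 tested genes in the cells with DOX, 52.2% of them, at an adjusted p below 0.05 (edgeR quasi-likelihood test, Benjamini-Hochberg adjustment, n = 3 in each group). Of these genes, 4543 rose (26.8%) and 4321 fell (25.5%), and a count of list members with DOX below has to be read against these shares. A count of list members without DOX has to be read against 12.5% higher and 12.8% lower of all tested genes there. The changes with DOX were mostly small. The median size among called genes was 0.56 on the log2 scale, 1637 called genes differed by less than 0.3 on that scale, 855 rose at least 2-fold (5.04%) and 1112 fell at least 2-fold (6.55%). At least 4-fold differences were called for 177 higher and 222 lower genes. The DMSO and RepSox libraries did not overlap for 4702 genes higher with RepSox (27.7%) and 4701 lower (27.7%). Bulk counts do not tell a lower level in every cell from a smaller share of cells with a high level.

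**Figure D1:**
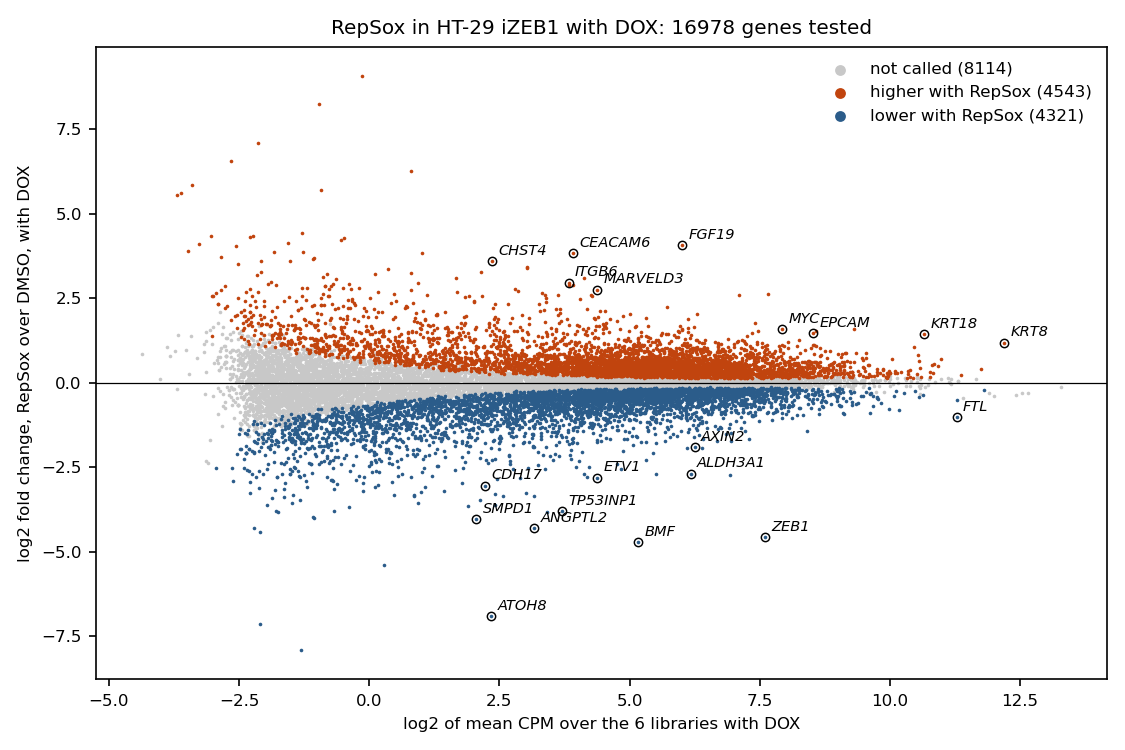
Log2 fold change of RepSox over DMSO in HT-29 iZEB1 with DOX (vertical axis) against the log2 of the mean CPM over the 6 libraries (horizontal axis), 1 point per tested gene, orange for called higher, blue for called lower and grey for not called. ZEB1, BMF and ATOH8 lie far below 0 at moderate to high levels, FGF19 and CEACAM6 far above, and the keratin genes KRT8 and KRT18 are the most abundant of the labelled genes that rose.

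The cells' own protein-coding ZEB1 gene lies on GRCh38 chromosome 10, 31318495 to 31529814, plus strand. The counts do not separate its transcripts from those of the inducible ZEB1 that DOX switches on. Counted together, ZEB1 was lower with RepSox. It stood at 366, 379.7 and 370.1 CPM in the DMSO libraries and 14.3, 15.6 and 17.1 CPM in the RepSox libraries. The groups did not overlap, and ZEB1 fell 23.8-fold (log2 fold change -4.57, SE 0.0981, adjusted p = 4.02e-16). Without DOX the means were 8.38 CPM with DMSO and 5.25 CPM with RepSox, below the 15.7 CPM mean of DOX with RepSox, a difference that was not tested. CDH1 (chromosome 16, 68737225 to 68835548, plus strand), which encodes E-cadherin, stood at 225, 226 and 235 CPM in the DMSO libraries and 353, 334 and 341 CPM in the RepSox libraries. Here too the groups did not overlap, and CDH1 rose 1.5-fold (log2 fold change 0.58, SE 0.0541, adjusted p = 4.45e-08), to a level below the 461 CPM of DMSO without DOX. VIM, the mesenchymal filament gene vimentin, was near 1 CPM or below in all 6 libraries (0.425, 1.11 and 1.01 CPM with DMSO, 0.606, 0.475 and 0.425 CPM with RepSox). Its groups overlapped and it did not pass (adjusted p = 0.102, and 0.0208 without DMSO replicate 1).

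Most ligands of the TGF-β superfamily and their binding proteins were lower with RepSox. Of 12 tested (19 listed), 9 fell and 2 rose (1 without DMSO replicate 2 or 3), with a median log2 fold change of -0.58 against -0.01 over all genes tested. TGFB1, the main TGF-β ligand of epithelial cancers, stood at 129, 162 and 138 CPM in the DMSO libraries and 86.7, 75.1 and 73.1 CPM in the RepSox libraries. All DMSO libraries were higher than all RepSox libraries (log2 fold change -0.87, SE 0.087, adjusted p = 1.26e-07). BMP4, a bone morphogenetic protein, fell from 792 ± 59 to 512 ± 52 CPM (SD, n = 3), FSTL3, which binds activin, from 8.45 ± 1.6 to 3.9 ± 0.75 CPM and GDF11, an activin-like ligand, from 19.7 ± 0.87 to 12.5 ± 0.74 CPM. Without DOX 2 of these 12 genes were called lower and 3 higher, against 12.8% lower and 12.5% higher of all tested genes.

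Receptors moved less. Of 11 tested, 5 fell, 1 rose and 5 did not pass, a median of -0.24. TGFBR2, the type II receptor that binds TGF-β, stood at 180, 191 and 188 CPM in the DMSO libraries and 98.5, 103 and 108 CPM in the RepSox libraries (log2 fold change -0.85, SE 0.0568, adjusted p = 6.08e-10). TGFBR1, which encodes the kinase that RepSox inhibits, was at 35.8, 30.5 and 33.1 CPM in the DMSO libraries and 25.1, 25.8 and 25.6 CPM in the RepSox libraries. Both genes were lower in every RepSox library than in any DMSO library, TGFBR2 by 1.8-fold and TGFBR1 by 1.3-fold (log2 fold change -0.38, SE 0.0883, adjusted p = 0.00147). BMPR2, the type II BMP receptor, fell 1.69-fold and the co-receptor ENG 1.57-fold. The called receptor gene that rose was TGFBR3, which encodes the co-receptor betaglycan (1.24-fold, log2 0.30, adjusted p = 0.00136).

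Among 15 tested SMAD and feedback genes, 8 fell and 2 rose (median -0.26). SMAD7, the inhibitory SMAD that SMAD3 induces, stood at 23.7, 26 and 21.9 CPM in the DMSO libraries and 11.3, 9.13 and 11 CPM in the RepSox libraries. SMAD3 itself was at 199, 207 and 203 CPM in the DMSO libraries and 92.9, 93.3 and 88.9 CPM in the RepSox libraries, and the SMAD co-repressor gene SKIL at 170.1, 128 and 151 CPM in the DMSO libraries and 63.1, 75.4 and 78.8 CPM in the RepSox libraries. None of these 3 genes had overlapping groups. SMAD7 fell 2.28-fold (log2 fold change -1.19, SE 0.0943, adjusted p = 5.75e-09), SMAD3 2.21-fold and SKIL 2.06-fold. The co-repressor TGIF1 and the ubiquitin ligase gene SMURF2 both fell 1.3-fold. NEDD4L, a ubiquitin ligase that acts on activated SMADs, rose from 124 ± 1.9 to 178 ± 6.1 CPM.

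Of 21 tested TGF-β target genes, 16 fell and 3 rose, with a median of -0.62. CCN2, which encodes the matricellular protein CTGF, stood at 7.45, 7.86 and 8.72 CPM in the DMSO libraries and 2.29, 2.48 and 2.69 CPM in the RepSox libraries (log2 fold change -1.69, SE 0.145, adjusted p = 1.69e-08). The RepSox values were all below the DMSO values. The actin-binding transgelin gene TAGLN fell from 6.22 ± 1.1 to 2.68 ± 0.28 CPM, the AP-1 subunit gene JUNB from 24.9 ± 3.4 to 13 ± 1.1 CPM, the early TGF-β response gene KLF10 from 60.1 ± 3.1 to 33.6 ± 3.9 CPM and the CDK inhibitor gene CDKN2B from 16.1 ± 0.88 to 9.15 ± 0.63 CPM (SD, n = 3). SNAI1, an EMT transcription factor gene named after its values were seen, rose but stayed low, at 0.925, 1.21 and 0.819 CPM in the DMSO libraries and 2.29, 1.72 and 2.23 CPM in the RepSox libraries (log2 fold change 1.08, SE 0.222, adjusted p = 0.000475).

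BMP targets, 7 tested, split by gene. ATOH8 (chromosome 2, 85751344 to 85788066, plus strand), a basic helix-loop-helix transcription factor gene that BMP signalling induces, had the largest fall of any called gene that reached 5 CPM in 1 group without overlap. It stood at 9.32, 12 and 8.89 CPM in the DMSO libraries and 0.11, 0.0791 and 0.0532 CPM in the RepSox libraries (log2 fold change -6.91, SE 0.296, adjusted p = 1.66e-12), a 120-fold difference. ID1, an inhibitor of helix-loop-helix factors, stood at 40.3, 53.5 and 49 CPM in the DMSO libraries and 18.3, 19.9 and 18.6 CPM in the RepSox libraries, and its relative ID2 at 11.1, 11.3 and 13 CPM in the DMSO libraries and 49.4, 43.1 and 47.3 CPM in the RepSox libraries. ID1 fell 2.51-fold (log2 fold change -1.33, SE 0.0943, adjusted p = 1.33e-09) and ID2 rose 3.94-fold (log2 fold change 1.98, SE 0.0824, adjusted p = 1.22e-12), so these 2 genes of 1 family moved in opposite directions, each with no overlap between groups. Of the 7 EMT transcription factor genes tested, 4 fell, ZEB1 among them. ETS1, which encodes a factor of invasive cells, went from 21.1 ± 2 to 10 ± 0.29 CPM (log2 fold change -1.07, SE 0.1, adjusted p = 5.32e-08).

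**Figure D2:**
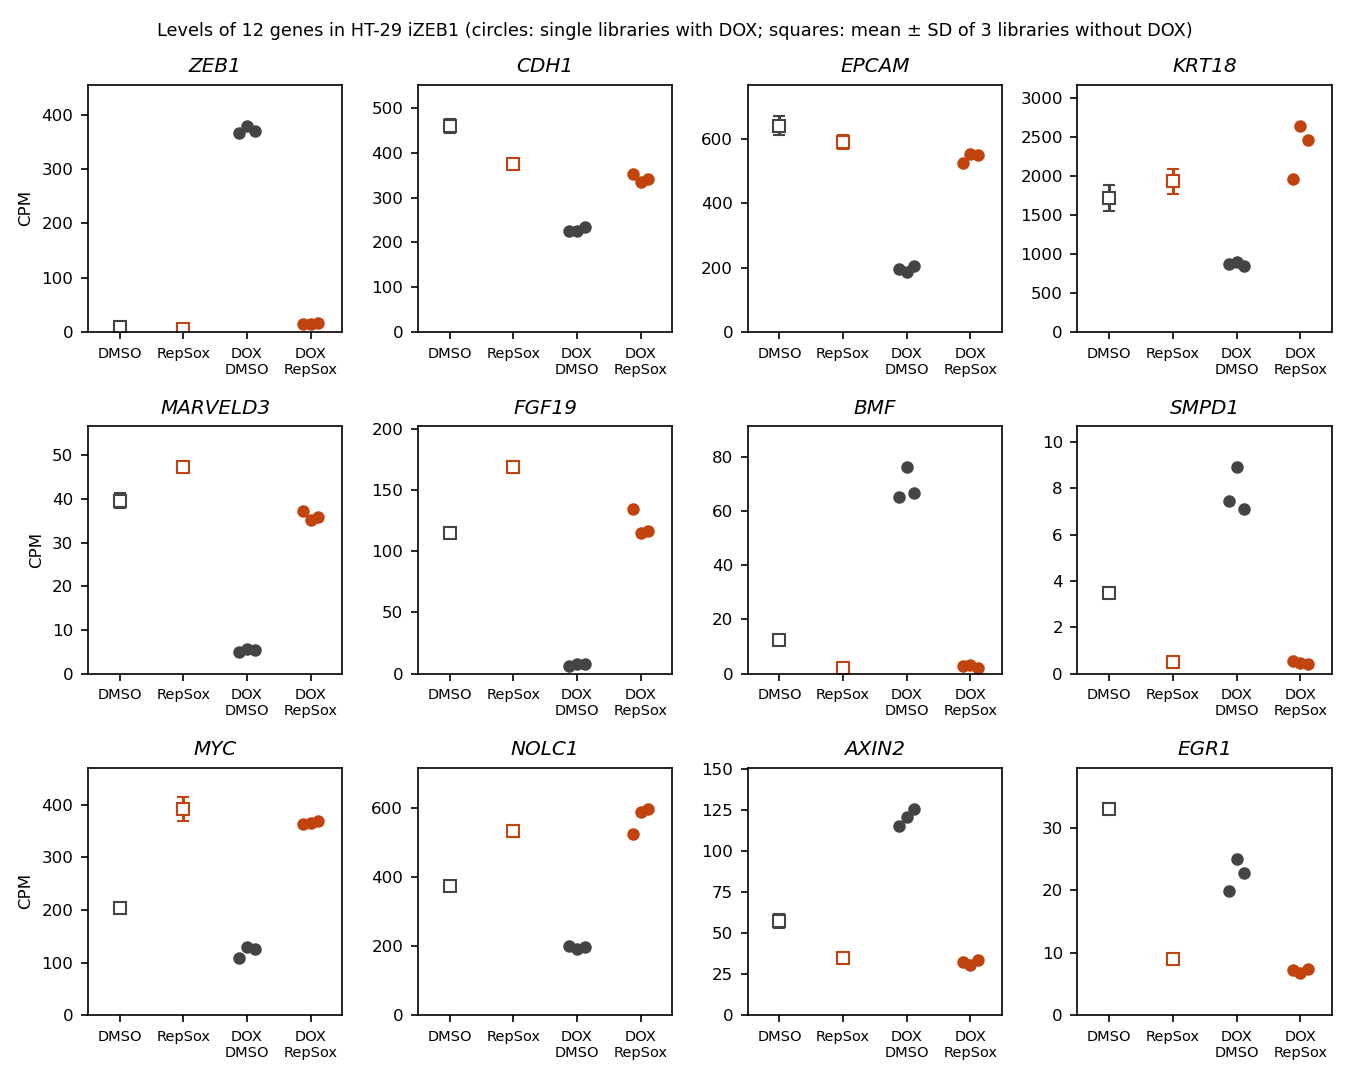
Level in CPM of 12 genes in HT-29 iZEB1, each panel with a linear axis from 0. Circles are the single libraries with DOX, dark for DMSO and orange for RepSox, and squares with bars are the mean ± SD of the 3 libraries without DOX. In each panel the DMSO and RepSox libraries with DOX do not overlap, as for ZEB1 with 366 to 380 CPM against 14.3 to 17.1 CPM.

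Genes of epithelial identity were the counterpart. Of 15 tested epithelial transcription factor and splicing regulator genes, 11 rose, with a median of 0.82. Without DOX 2 of them rose and 5 fell. ESRP1, a splicing regulator that keeps epithelial exons, stood at 74.1, 75.8 and 81.4 CPM in the DMSO libraries and 260.1, 259 and 267 CPM in the RepSox libraries (log2 fold change 1.77, SE 0.0562, adjusted p = 3.67e-14). GRHL2, a grainyhead factor that maintains epithelial enhancers, was at 33.1, 32.6 and 33.5 CPM in the DMSO libraries and 89.5, 82.5 and 83.1 CPM in the RepSox libraries (log2 fold change 1.36, SE 0.0585, adjusted p = 1.87e-12). Both were lower in all DMSO libraries than in any RepSox library. OVOL1 and OVOL2, zinc-finger genes that oppose EMT factors, rose 5.01-fold and 2.72-fold. ESRP2, the paralogue of ESRP1, rose 1.88-fold.

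The junction genes turned with RepSox in part. Of 25 tight junction and polarity genes, 14 rose and 4 fell (median 0.28). Of 13 adherens junction and cadherin genes 6 rose and 6 fell, and of 10 desmosome genes 5 rose and 2 fell. MARVELD3, a tight junction MARVEL protein gene, had the largest rise of the 3 lists. It stood at 4.97, 5.58 and 5.47 CPM in the DMSO libraries and 37.3, 35.1 and 35.9 CPM in the RepSox libraries (log2 fold change 2.76, SE 0.0772, adjusted p = 6.87e-15), and without DOX the DMSO mean was 39.7 CPM. ILDR1, a tricellular junction gene, stood at 1.57, 1.04 and 1.73 CPM in the DMSO libraries and 6.45, 5.36 and 5.48 CPM in the RepSox libraries (log2 fold change 1.99, SE 0.158, adjusted p = 5.71e-09). CRB3, which encodes the apical polarity protein Crumbs3, was at 4.15, 3.26 and 4.19 CPM in the DMSO libraries and 14.2, 10.4 and 9.87 CPM in the RepSox libraries, and CLDN7, a claudin gene, at 38.8, 41.1 and 41.3 CPM in the DMSO libraries and 102, 87.8 and 84.8 CPM in the RepSox libraries. All 4 had no overlap between the groups. PATJ, a Crumbs-complex scaffold gene, and LLGL2, a basolateral polarity gene, rose 2.05-fold and 1.99-fold. CRB2, a paralogue of CRB3 that is not in these lists, fell 12.2-fold.

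The promoters of the junction genes with the largest rises that RefSeq lists (GRCh38.p14, 250 bases before to 50 after the start) are shown to set what DNA lies at genes that rose beside that at the largest falls. Capitals mark each CACCTG or CAGGTG, which are the same E-box read on either strand and the form that ZEB1 is known to bind. CRB3 held 5 of them, PATJ 3 and ILDR1 2. CLDN7 held none, and neither did ATOH8 and BMF, the genes with the largest falls.
ILDR1 (chr3:122022198-122022497, minus strand): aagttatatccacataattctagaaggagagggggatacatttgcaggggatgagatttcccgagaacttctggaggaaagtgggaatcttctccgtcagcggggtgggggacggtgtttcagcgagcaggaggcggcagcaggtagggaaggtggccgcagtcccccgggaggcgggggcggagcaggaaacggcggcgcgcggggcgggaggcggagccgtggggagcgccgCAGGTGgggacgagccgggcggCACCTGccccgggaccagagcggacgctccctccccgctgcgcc
CRB3 (chr19:6464021-6464320, plus strand): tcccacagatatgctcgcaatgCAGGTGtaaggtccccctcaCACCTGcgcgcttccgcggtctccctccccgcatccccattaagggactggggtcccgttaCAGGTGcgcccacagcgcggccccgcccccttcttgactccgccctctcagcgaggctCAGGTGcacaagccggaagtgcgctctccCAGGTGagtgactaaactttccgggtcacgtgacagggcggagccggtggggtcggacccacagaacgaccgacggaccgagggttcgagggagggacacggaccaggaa
PATJ (chr1:61742230-61742529, plus strand): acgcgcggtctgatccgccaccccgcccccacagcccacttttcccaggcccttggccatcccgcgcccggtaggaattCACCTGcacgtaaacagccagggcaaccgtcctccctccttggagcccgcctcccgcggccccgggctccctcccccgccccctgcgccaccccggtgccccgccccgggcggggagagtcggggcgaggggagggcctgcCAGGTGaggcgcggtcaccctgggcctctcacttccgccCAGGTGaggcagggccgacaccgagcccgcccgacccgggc
CLDN7 (chr17:7263164-7263463, minus strand): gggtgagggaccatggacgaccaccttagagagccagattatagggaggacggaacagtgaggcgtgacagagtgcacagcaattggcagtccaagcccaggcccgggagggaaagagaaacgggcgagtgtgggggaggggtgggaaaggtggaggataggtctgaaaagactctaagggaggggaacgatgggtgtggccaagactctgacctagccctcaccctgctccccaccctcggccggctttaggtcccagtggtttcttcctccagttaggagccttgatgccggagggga
ATOH8 (chr2:85753741-85754040, plus strand): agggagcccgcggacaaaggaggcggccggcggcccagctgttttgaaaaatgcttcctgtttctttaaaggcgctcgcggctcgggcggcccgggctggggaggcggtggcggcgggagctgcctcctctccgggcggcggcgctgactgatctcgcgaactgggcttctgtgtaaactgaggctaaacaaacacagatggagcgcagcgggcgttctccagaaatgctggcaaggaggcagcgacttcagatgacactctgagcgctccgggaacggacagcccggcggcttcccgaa
BMF (chr15:40108830-40109129, minus strand): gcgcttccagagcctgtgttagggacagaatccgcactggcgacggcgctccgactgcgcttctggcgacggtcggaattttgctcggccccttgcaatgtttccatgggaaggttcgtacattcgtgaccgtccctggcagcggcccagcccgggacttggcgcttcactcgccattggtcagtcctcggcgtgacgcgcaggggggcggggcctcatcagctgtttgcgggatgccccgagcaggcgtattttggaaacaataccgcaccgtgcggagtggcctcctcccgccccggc
The ILDR1 matches lie 16 bases before and 6 bases after the annotated start, and those of PATJ 171 and 30 bases before and 9 after it. In CRB3 the match nearest to the start lies 60 bases before it. The motif is in 20.6% of all 27305 RefSeq promoters of this length and in 19.3% of the 11166 that belong to tested genes. Only 55.2% of the genes that rose at least 2-fold, 61.2% of those that fell at least 2-fold and 57.9% of those not called have an entry. Among those with an entry the motif was in 37.5%, 15.1% and 19.7%. The difference was not tested, and the genes without an entry are not covered. A match is a description of these letters and not a binding site. CDH1 and MARVELD3 have no entry.

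Among the cadherins and their partners, the surface glycoprotein gene EPCAM stood at 195, 186 and 206 CPM in the DMSO libraries and 527, 554 and 551 CPM in the RepSox libraries (log2 fold change 1.47, SE 0.0599, adjusted p = 9.18e-13). The RepSox mean of EPCAM, 544 CPM, lay below its means without DOX, 642 CPM with DMSO and 592 CPM with RepSox, comparisons that were not tested. CDH17, the intestinal liver-intestine cadherin gene, went the other way, at 8.72, 8.01 and 8.14 CPM in the DMSO libraries and 1.02, 1.05 and 0.931 CPM in the RepSox libraries (log2 fold change -3.04, SE 0.165, adjusted p = 3.42e-11), with no overlap. Without DOX its means were 1.29 CPM with DMSO and 0.964 CPM with RepSox. The catenin genes CTNND1 and JUP fell 1.42-fold and 1.39-fold. In desmosomes the plakophilin genes PKP3 and PKP2 rose 2.88-fold and 1.75-fold, the desmoplakin gene DSP 1.42-fold, and the desmocollin gene DSC2 fell 1.73-fold.

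Keratin genes had the largest rises in CPM. KRT8 stood at 2734, 3098 and 2783 CPM in the DMSO libraries and 6505, 6681 and 6453 CPM in the RepSox libraries (log2 fold change 1.19, SE 0.0628, adjusted p = 2.67e-11), and its filament partner KRT18 at 876, 899 and 843 CPM in the DMSO libraries and 1960, 2645 and 2465 CPM in the RepSox libraries (log2 fold change 1.43, SE 0.0953, adjusted p = 5.50e-10). The groups did not overlap for either, and both are uncertain, since many near-identical pseudogenes of these genes exist and the deposited counts could split reads among them. Of 9 tested epithelial keratins 5 rose and 1 fell, KRT20, a keratin of differentiated enterocytes (100.2 ± 2.7 to 72.7 ± 8.8 CPM). In the list of membrane serine protease and inhibitor genes, which also holds the calpain gene CAPN5, 9 of 11 rose. CAPN5, which encodes a cysteine protease, was the 1 that fell (1.68-fold). ST14, which encodes matriptase, rose from 243 ± 41 to 521 ± 51 CPM (SD, n = 3), and PRSS8, which encodes its partner prostasin, from 10.4 ± 0.91 to 39 ± 6.8 CPM. TMPRSS4 rose from 5.4 ± 0.55 to 32.7 ± 4.8 CPM, against 104 CPM with DMSO without DOX.

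Further genes with large rises were of several kinds. TMEM30B, a flippase subunit gene, stood at 3.5, 3.54 and 3.78 CPM in the DMSO libraries and 31.4, 30.3 and 31.7 CPM in the RepSox libraries (log2 fold change 3.11, SE 0.0752, adjusted p = 1.15e-15). BSPRY, PRR15L and the dynein adaptor gene BICDL2 rose 7.39-fold, 6.92-fold and 9.73-fold. S100A14, an EF-hand protein gene of epithelia, rose 6.56-fold, from 1.92 ± 0.22 to 12.6 ± 1.4 CPM. It stayed below its 43.1 CPM in DMSO without DOX. The nucleoside transporter gene SLC28A3 rose 10.6-fold, the GABA receptor subunit gene GABRP 7.52-fold and the glutamate receptor subunit gene GRIN1 6.44-fold. MAL2, which encodes a protein of apical transport, rose from 314 ± 32 to 947 ± 62 CPM (SD, n = 3).

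Of 6 tested CEACAM genes, which encode cell adhesion proteins of the carcinoembryonic antigen family, 5 rose. CEACAM6 stood at 1.62, 1.77 and 2.5 CPM in the DMSO libraries and 26.9, 25.3 and 32.1 CPM in the RepSox libraries (log2 fold change 3.83, SE 0.13, adjusted p = 8.81e-14), and CEACAM5, the carcinoembryonic antigen gene, at 1.1, 1.74 and 1.28 CPM in the DMSO libraries and 15.7, 14.3 and 14.6 CPM in the RepSox libraries (log2 fold change 3.44, SE 0.148, adjusted p = 1.87e-12). Neither had overlapping groups. The 2 genes are neighbours of 1 family, and how reads of stretches that they share were split between them is uncertain. RepSox raised both without DOX as well, with log2 fold changes of 2.05 and 1.83, and CEACAM6 was then at 8.65 CPM with DMSO and 35.8 CPM with RepSox. CEACAM1 rose 1.25-fold. The other 2, named after their values were seen, were CEACAM3, at most 0.239 CPM in each of the 6 libraries, and CEACAM7, with no count in the 3 DMSO libraries and 1.65 to 2.04 CPM with RepSox.

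Most mesenchymal genes were lower. Of 16 tested (26 listed), 10 fell, 1 rose (2 without the libraries that stood apart) and 5 did not pass, with a median of -0.80. EMP3, a small tetraspan membrane protein gene, stood at 17.1, 24.9 and 17.6 CPM in the DMSO libraries and 1.85, 1.19 and 1.2 CPM in the RepSox libraries (log2 fold change -3.82, SE 0.201, adjusted p = 2.57e-11). LGALS1, which encodes galectin-1, was at 45.2, 55.9 and 45.5 CPM in the DMSO libraries and 7.5, 8.84 and 8.75 CPM in the RepSox libraries (log2 fold change -2.55, SE 0.115, adjusted p = 3.26e-12). In both genes every RepSox library was below every DMSO library. The receptor tyrosine kinase gene AXL fell 3.51-fold, the membrane metalloprotease gene MMP14 1.98-fold and NT5E, which encodes the ectoenzyme CD73, 1.8-fold. LOXL1, a collagen-crosslinking enzyme gene, rose 1.57-fold.

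Integrin and laminin genes changed by subunit. ITGB6, the epithelial integrin β6 subunit that activates latent TGF-β, stood at 3.8, 2.73 and 3.13 CPM in the DMSO libraries and 23.9, 25.8 and 25.9 CPM in the RepSox libraries (log2 fold change 2.97, SE 0.105, adjusted p = 1.53e-13), with no overlap, and without DOX its means were 31.6 CPM with DMSO and 30.9 CPM with RepSox. Of 14 tested integrins 3 rose and 9 fell (5 without DMSO replicate 1). The fibronectin and collagen receptor subunit gene ITGB1 fell from 679.9 ± 35 to 469 ± 29 CPM (SD, n = 3), its laminin-binding partner ITGA3 from 301 ± 41 to 178 ± 14 CPM, and ITGA6, which pairs with β4 in hemidesmosomes, rose from 453 ± 47 to 640.1 ± 14 CPM. Of 7 laminin chains 5 fell and 2 rose. LAMB2 stood at 64.5, 72.2 and 73.5 CPM in the DMSO libraries and 22, 19.4 and 20.1 CPM in the RepSox libraries (log2 fold change -1.77, SE 0.0827, adjusted p = 5.16e-12), and LAMB3, a chain of the epithelial laminin-332, at 20.4, 23.8 and 23.4 CPM in the DMSO libraries and 51.1, 47.5 and 46.7 CPM in the RepSox libraries (log2 fold change 1.10, SE 0.0737, adjusted p = 5.81e-10). These 2 β chains moved in opposite directions, each without overlap, and LAMA3, another laminin-332 chain, fell 1.62-fold.

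Of 24 actomyosin genes 7 rose and 9 fell. SYNPO, which encodes the actin-bundling synaptopodin, fell from 6.92 ± 1.4 to 0.548 ± 0.2 CPM (SD, n = 3) and MYLK, the myosin light chain kinase gene, from 12.2 ± 0.54 to 6.05 ± 0.49 CPM. The non-muscle myosin heavy chain genes MYH10 and MYH14 rose 1.67-fold and 1.4-fold. ACTB, the β-actin gene, rose from 2963 ± 272 to 3942 ± 283 CPM (log2 0.41, adjusted p = 8.60e-05). Other genes of the cytoskeleton and of guidance that fell were DOCK11, a CDC42 exchange factor gene, at 18.1, 15.1 and 15.8 CPM in the DMSO libraries and 1.32, 1.48 and 2.02 CPM in the RepSox libraries (log2 fold change -3.34, SE 0.174, adjusted p = 2.27e-11), and the microtubule-associated MAP1A (7.82-fold) and NAV3 (5.08-fold). The secreted angiopoietin-like gene ANGPTL2 stood at 15.4, 19.8 and 16.2 CPM in the DMSO libraries and 0.882, 0.871 and 0.851 CPM in the RepSox libraries (log2 fold change -4.30, SE 0.226, adjusted p = 2.41e-11). The RepSox values of DOCK11 and ANGPTL2 were at most 2.02 CPM, and their means without DOX lay between 0.703 and 1.14 CPM.

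Lineage genes of the intestine did not move 1 way. Of 18 mucin and goblet cell genes 6 rose and 7 fell, and of 15 brush border and enterocyte genes 6 rose and 6 fell. The shares of all tested genes were 26.8% higher and 25.5% lower, so calls in both directions are not particular to these lists. TFF3, a trefoil peptide gene of goblet cells, stood at 10.2, 12.3 and 9.23 CPM in the DMSO libraries and 2.81, 2.22 and 1.97 CPM in the RepSox libraries (log2 fold change -2.18, SE 0.159, adjusted p = 1.86e-09). The trefoil gene TFF2, the disulphide isomerase gene AGR2 and the mucus protein gene FCGBP also fell, 2.22-fold, 1.53-fold and 1.53-fold. FCGBP was higher with RepSox without DOX (log2 1.87). MUC20 rose 3.05-fold, but could share reads with its copy MUC20P1, so that its level is uncertain. CDHR5, a protocadherin gene of microvillus tips, stood at 16.2, 24.4 and 16.8 CPM in the DMSO libraries and 3.77, 3.64 and 4.36 CPM in the RepSox libraries (log2 fold change -2.28, SE 0.146, adjusted p = 3.22e-10), and VIL1, which encodes the microvillus actin bundler villin, at 20, 21.5 and 23.8 CPM in the DMSO libraries and 50.5, 52 and 47.2 CPM in the RepSox libraries (log2 fold change 1.20, SE 0.0731, adjusted p = 1.74e-10). These 2 brush border genes changed in opposite directions without overlap. Carbonic anhydrase gene CA12 and the actin-capping EPS8 rose 2.31-fold and 1.57-fold, and the peptidase gene DPP4 fell 1.58-fold.

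Of 14 intestinal transcription factor genes 6 rose and 3 fell (5 when scaled by library totals). The vitamin D receptor gene VDR rose 1.82-fold, HNF4G 1.38-fold and MYB, a progenitor factor gene, 1.47-fold. The forkhead genes FOXA2 and FOXA1 fell 2.59-fold and 1.28-fold. Of 25 glycosyl and sulfo transferase genes, which build mucin glycans, 14 rose and 6 fell (median 0.40). CHST4, a GlcNAc sulfotransferase gene, stood at 1.07, 0.556 and 0.723 CPM in the DMSO libraries and 11.4, 7.97 and 9.23 CPM in the RepSox libraries (log2 fold change 3.60, SE 0.183, adjusted p = 1.68e-11). GALNT6, which starts O-glycans, rose 5.04-fold, and FUT2, the secretor fucosyltransferase gene, 4.04-fold.

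**Figure D3:**
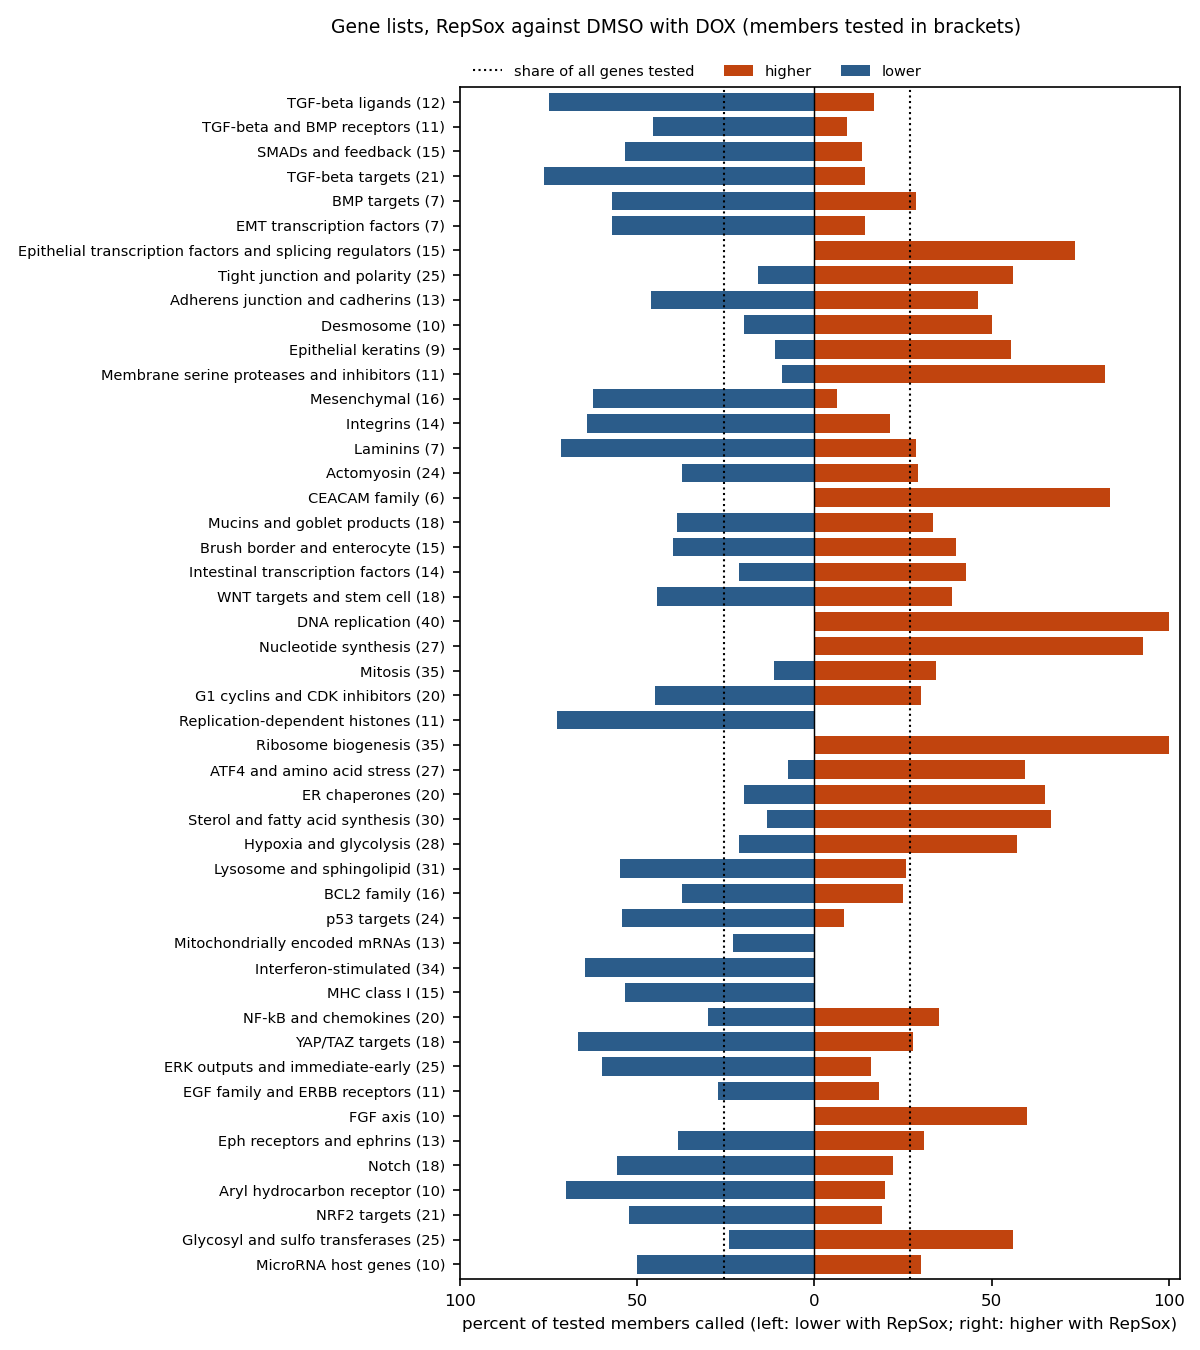
Percent of tested members of each gene list called higher (orange, to the right) or lower (blue, to the left) with RepSox in HT-29 iZEB1 with DOX, with the number of tested members in brackets. Dotted lines mark the shares of all tested genes, 26.8% higher and 25.5% lower, and all tested members of the DNA replication and ribosome biogenesis lists lie on the right.

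In the WNT and stem cell list, 18 tested, 7 rose and 8 fell. AXIN2, a feedback inhibitor and common readout of WNT signalling, stood at 115, 121 and 126 CPM in the DMSO libraries and 32.5, 30.3 and 33.5 CPM in the RepSox libraries (log2 fold change -1.91, SE 0.0696, adjusted p = 2.22e-13). SOX4, a progenitor transcription factor gene, was at 215, 209.5 and 223 CPM in the DMSO libraries and 80.9, 81.1 and 79.1 CPM in the RepSox libraries (log2 fold change -1.43, SE 0.0567, adjusted p = 6.93e-13). No RepSox library reached the lowest DMSO library in either. The WNT target SP5 and the WNT antagonist gene DKK1 fell 3.1-fold and 2.12-fold. PROM1, which encodes the surface protein CD133, rose from 87.7 ± 9.8 to 205 ± 5.4 CPM (SD, n = 3).

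Among FGF genes, FGF19 (chromosome 11, 69698232 to 69704642, minus strand), the enteric hormone that restrains bile acid synthesis, had the largest rise in the rule for named genes. It stood at 6, 7.73 and 7.83 CPM in the DMSO libraries and 135, 115 and 116 CPM in the RepSox libraries (log2 fold change 4.08, SE 0.0936, adjusted p = 6.56e-16), a 16.9-fold difference, while without DOX it was at 114 CPM with DMSO and 168 CPM with RepSox. Of 10 tested FGF genes 6 rose, among them FGFR4, the receptor of FGF19, from 50 ± 4.2 to 82.5 ± 14 CPM (SD, n = 3), FGFR2 from 23 ± 2.3 to 58.9 ± 1 CPM and the ligand gene FGF9 from 3.62 ± 0.61 to 10.6 ± 0.74 CPM. In the EGF family the ligand gene AREG, which encodes amphiregulin, rose 2.93-fold (log2 1.55, adjusted p = 8.60e-12), the receptor inhibitor gene LRIG1 rose 1.59-fold, and the ligand gene BTC fell 1.77-fold.

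Outputs of ERK signalling were mostly lower, 15 of 25, with 4 higher. ETV1, an ETS-family factor gene, stood at 38.8, 35.5 and 35.1 CPM in the DMSO libraries and 4.63, 5.94 and 5.11 CPM in the RepSox libraries (log2 fold change -2.80, SE 0.103, adjusted p = 2.37e-13). EGR1, an immediate-early zinc-finger gene, was at 19.8, 25 and 22.9 CPM in the DMSO libraries and 7.27, 6.81 and 7.34 CPM in the RepSox libraries (log2 fold change -1.66, SE 0.0987, adjusted p = 1.22e-10). Both had DMSO libraries that were all above the RepSox libraries. The ERK feedback gene SPRY1 fell 2.02-fold, and FOS, an AP-1 subunit gene, rose 1.71-fold.

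Of 18 YAP/TAZ targets, 12 fell and 5 rose (median -0.42). MYOF, a membrane repair gene, went from 182 ± 3.3 to 65.2 ± 0.88 CPM (SD, n = 3) and LATS2, a kinase gene that restrains YAP, from 34.6 ± 2.2 to 18.3 ± 1.2 CPM. FJX1, a Golgi kinase gene, rose 3.52-fold. In the Notch list 10 of 18 fell and 4 rose. The ligand genes parted: JAG1 stood at 30, 31.4 and 31.2 CPM in the DMSO libraries and 12.7, 16.7 and 15.5 CPM in the RepSox libraries and JAG2 at 9.02, 8.06 and 8.86 CPM in the DMSO libraries and 29.1, 24.8 and 24.1 CPM in the RepSox libraries. JAG1 fell 2.06-fold (log2 fold change -1.04, SE 0.101, adjusted p = 7.87e-08) and JAG2 rose 3-fold (log2 fold change 1.59, SE 0.0992, adjusted p = 2.37e-10), with no overlap in either. LFNG, which encodes a glycosyltransferase that modifies Notch, fell 2.17-fold, HES6, a helix-loop-helix gene, 3.02-fold, and the Notch feedback gene NRARP rose 2.06-fold. Of 13 Eph receptor and ephrin genes 4 rose and 5 fell. EPHA1 rose 5.57-fold (log2 2.48, adjusted p = 5.63e-13), while EPHA2, EPHB3 and the ephrin gene EFNB2 fell 1.64-fold, 1.82-fold and 1.65-fold.

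Growth genes rose together. MYC, the transcription factor gene that drives ribosome and nucleotide synthesis, stood at 109, 129 and 125 CPM in the DMSO libraries and 364, 366 and 369 CPM in the RepSox libraries (log2 fold change 1.60, SE 0.0665, adjusted p = 1.22e-12). The groups were 3.02-fold apart with no overlap, and without DOX the means were 204 CPM with DMSO and 393 CPM with RepSox. All 35 ribosome biogenesis genes tested rose, with a median log2 fold change of 0.97, and 33 of them also rose without DOX, at a median of 0.38. NOLC1, a nucleolar chaperone gene of snoRNPs, stood at 200.4, 192 and 197 CPM in the DMSO libraries and 525, 589.5 and 598 CPM in the RepSox libraries (log2 fold change 1.54, SE 0.0607, adjusted p = 6.47e-13). NOP16 rose 2.93-fold, RRS1 2.71-fold and DKC1, the pseudouridine synthase gene dyskerin, 2.17-fold. The abundant nucleolar protein genes NCL and NPM1 rose from 904 ± 38 to 1906 ± 184 CPM and from 1610 ± 76 to 2260 ± 103 CPM (SD, n = 3).

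All 40 DNA replication genes tested rose as well, at a median of 0.86, against 12 of 40 and a median of 0.14 without DOX. CDC6, which loads the replicative helicase, stood at 51.3, 53.5 and 48.8 CPM in the DMSO libraries and 123, 121 and 130 CPM in the RepSox libraries (log2 fold change 1.28, SE 0.0595, adjusted p = 4.83e-12). The helicase subunit genes MCM3 and MCM2 were at 149, 178 and 150.4 CPM in the DMSO libraries and 363, 368 and 375 CPM in the RepSox libraries, and at 102, 137 and 105 CPM in the DMSO libraries and 264, 260.4 and 253 CPM in the RepSox libraries. In each the lowest RepSox library lay above the highest DMSO library. MCM10, ORC6, an origin recognition subunit gene, and POLE2, a DNA polymerase subunit gene, rose 2.34-fold, 2.17-fold and 2.23-fold. Of 27 nucleotide synthesis genes 25 rose (median 0.56), led by the mitochondrial folate enzyme gene MTHFD1L (2.51-fold, log2 1.33, adjusted p = 2.56e-12). The pyrimidine synthesis genes CAD, CTPS1 and DHODH rose 2.04-fold, 1.93-fold and 1.92-fold.

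Of 35 mitosis genes tested, 19 were not called, 12 rose and 4 fell, a median of 0.12. Over all genes tested 26.8% rose and 25.5% fell. Of the mitosis genes 7 rose without DMSO replicate 3 and 6 when scaled by library totals. KIF20A, a kinesin gene of cytokinesis, fell from 91.7 ± 9.2 to 56.8 ± 1.8 CPM (SD, n = 3), the phosphatase gene CDC25B from 156 ± 17 to 98.5 ± 8.5 CPM, and the checkpoint gene MAD2L1 rose from 103 ± 6.1 to 152 ± 8.5 CPM. Of 20 G1 cyclin and CDK inhibitor genes 6 rose and 9 fell. CDC25A, a phosphatase gene of S-phase entry, stood at 22.4, 20.4 and 20.6 CPM in the DMSO libraries and 50.2, 44.8 and 46.3 CPM in the RepSox libraries (log2 fold change 1.15, SE 0.0701, adjusted p = 1.59e-10), and the cyclin gene CCNE1 rose 1.86-fold. Genes that restrain the cycle were among those that fell: CCNG2, an unusual cyclin of arrested cells, stood at 121, 106 and 114 CPM in the DMSO libraries and 32.6, 40.3 and 38.8 CPM in the RepSox libraries (log2 fold change -1.61, SE 0.0867, adjusted p = 3.34e-11), and the CDK inhibitor genes CDKN1C and CDKN2C fell 3.08-fold and 2.28-fold. Of 11 histone genes, 8 fell (median -1.15). H2BC21 went from 14 ± 1 to 2.46 ± 0.37 CPM and H2AC6 from 24.6 ± 1.2 to 7.24 ± 0.56 CPM. Most mRNAs of this class have no poly(A) tail, and near-identical copies make single genes uncertain.

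**Figure D4:**
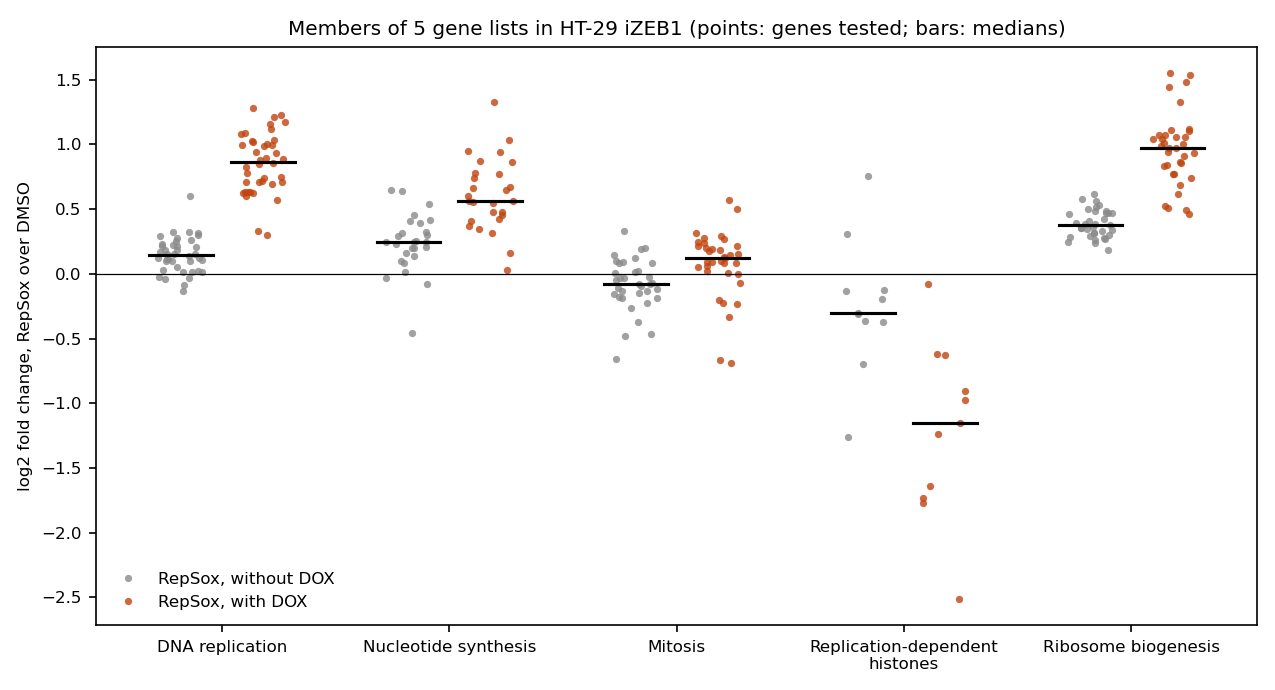
Log2 fold change of RepSox over DMSO for each tested member of 5 gene lists, grey without DOX and orange with DOX, with bars at the medians. The medians with DOX are 0.86 for DNA replication, 0.56 for nucleotide synthesis, 0.12 for mitosis, -1.15 for histones and 0.97 for ribosome biogenesis.

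Amino acid and ER stress genes were more often higher than lower. In the ATF4 list 16 of 27 rose and 2 fell (1 without DMSO replicate 1 or 2 or RepSox replicate 1), with a median of 0.40. SLC7A5, a large amino acid transporter gene that is in the aryl hydrocarbon receptor list too, stood at 159, 209 and 164 CPM in the DMSO libraries and 494, 406 and 391 CPM in the RepSox libraries (log2 fold change 1.28, SE 0.0939, adjusted p = 2.05e-09). The serine synthesis genes PSAT1 and PHGDH rose 2.33-fold and 2-fold, and the pseudokinase gene TRIB3 1.79-fold. Among 20 ER chaperone genes 13 rose and 4 fell (2 without DMSO replicate 3), with HSPA5, which encodes the chaperone BiP, at 470.5, 476 and 418 CPM in the DMSO libraries and 649, 672 and 655 CPM in the RepSox libraries (log2 fold change 0.53, SE 0.0592, adjusted p = 4.49e-07). SDF2L1 rose 2.35-fold, and ERN1, the gene of the stress sensor IRE1, fell 1.5-fold. The cytosolic and mitochondrial chaperone genes HSP90AB1, HSPA8 and HSPD1 rose from 1534 ± 53 to 2484 ± 88 CPM, 1490 ± 8.7 to 2200 ± 10 CPM and 1073 ± 89 to 1887 ± 106 CPM (SD, n = 3).

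Of 30 sterol and fatty acid synthesis genes 20 rose and 4 fell (2 without RepSox replicate 2). DHCR7, an enzyme gene of the last steps of cholesterol synthesis, rose 1.94-fold, and the desaturase gene SCD rose from 1180 ± 18 to 1829 ± 18 CPM (SD, n = 3). TM7SF2, a sterol reductase gene, fell 1.73-fold. In the hypoxia and glycolysis list 16 of 28 rose and 6 fell (2 without DMSO replicate 2, in which the list lay 0.16 above its group mean on the log2 scale, and 3 without RepSox replicate 2 or 3). The hexokinase gene HK2 stood at 33.4, 31.2 and 31.6 CPM in the DMSO libraries and 95.6, 99.2 and 93.1 CPM in the RepSox libraries (log2 fold change 1.58, SE 0.0662, adjusted p = 1.24e-12), and CA9, a carbonic anhydrase gene that hypoxia induces, at 9.37, 12 and 9.03 CPM in the DMSO libraries and 34.5, 32.5 and 30.2 CPM in the RepSox libraries (log2 fold change 1.68, SE 0.117, adjusted p = 1.00e-09). VEGFA, the vascular growth factor gene, rose 2.25-fold, with no overlap for these 3 genes.

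The BCL2 family list of 16 tested genes had 4 that rose and 6 that fell. BMF (chromosome 15, 40087890 to 40108892, minus strand), which encodes a pro-apoptotic BH3-only protein, stood at 65.3, 76.1 and 66.5 CPM in the DMSO libraries and 2.62, 3.27 and 2.02 CPM in the RepSox libraries (log2 fold change -4.71, SE 0.13, adjusted p = 5.78e-15). The difference was 26.2-fold, and without DOX BMF was at 12.4 CPM with DMSO and 1.98 CPM with RepSox. The BH3-only gene BBC3 fell 2.07-fold, the pro-survival gene BCL2L1 1.31-fold and BCL2L15 2.55-fold, while the BH3-only gene BCL2L11 rose 1.32-fold. Of 24 p53 targets 13 fell and 2 rose (1 without DMSO replicate 2 or RepSox replicate 2 or 3). TP53INP1, a stress protein gene of autophagy and cell death, stood at 26.7, 19.6 and 26.3 CPM in the DMSO libraries and 1.32, 1.82 and 2.08 CPM in the RepSox libraries (log2 fold change -3.79, SE 0.187, adjusted p = 1.03e-11), with no overlap. The ribonucleotide reductase subunit gene RRM2B fell 1.95-fold and AEN, a nuclease gene, rose 2.29-fold.

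Lysosome and sphingolipid genes fell in 17 of 31 and rose in 8. SMPD1, which encodes acid sphingomyelinase, stood at 7.45, 8.92 and 7.11 CPM in the DMSO libraries and 0.523, 0.475 and 0.425 CPM in the RepSox libraries (log2 fold change -4.03, SE 0.175, adjusted p = 2.09e-12). The neutral sphingomyelinase gene SMPD3 rose, from 3.49 ± 0.34 to 13.3 ± 2.5 CPM (SD, n = 3), so the genes of these 2 enzymes moved in opposite directions. The sialidase gene NEU1 fell 2.95-fold, and the saposin precursor gene PSAP fell from 1101 ± 66 to 723 ± 29 CPM. Other genes with the largest falls were CRB2, a Crumbs paralogue gene (12.2-fold), KLHL30 (11.1-fold), the homeobox gene MEIS3 (10.2-fold), the glutamate transporter gene SLC1A7 (9.82-fold) and the cytochrome P450 gene CYP4F12 (9.64-fold).

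Xenobiotic and antioxidant genes were more often lower than higher. Of 10 aryl hydrocarbon receptor genes 7 fell and 2 rose. ALDH3A1, an aldehyde dehydrogenase gene, stood at 124, 132 and 118 CPM in the DMSO libraries and 21.2, 19.1 and 17.9 CPM in the RepSox libraries (log2 fold change -2.69, SE 0.0817, adjusted p = 2.25e-14). CYP1B1 fell 2.71-fold and TIPARP, a receptor-induced feedback gene, 1.88-fold. Of 21 NRF2 targets 11 fell and 4 rose (2 without DMSO replicate 3). OSGIN1 fell 3.82-fold, the quinone reductase gene NQO1 fell from 746 ± 33 to 499 ± 6 CPM (SD, n = 3) and AKR1C3 from 92.2 ± 3.2 to 34 ± 0.72 CPM, the latter uncertain beside its close copies. The ferritin light chain gene FTL stood at 3037, 3939 and 3029 CPM in the DMSO libraries and 1924, 1509 and 1494 CPM in the RepSox libraries (log2 fold change -1.02, SE 0.101, adjusted p = 9.88e-08), with the highest value in DMSO replicate 2 and no overlap. It and the heavy chain gene FTH1 (1.76-fold lower) have many pseudogenes, so their counts are uncertain.

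Interferon-stimulated genes fell in 22 of 34, with a median of -0.62, and 19 fell without the 2 libraries that stood apart. In DMSO replicate 2 the list lay 0.54 above its group mean on the log2 scale, and replicates 1 and 3 deviated by -0.23 and -0.30. STAT2, a factor of the interferon response, stood at 92.7, 125 and 95.3 CPM in the DMSO libraries and 46.1, 43.6 and 41.9 CPM in the RepSox libraries (log2 fold change -1.25, SE 0.0983, adjusted p = 5.08e-09), and IFIT1, an RNA sensor gene, at 158, 263 and 145 CPM in the DMSO libraries and 94.9, 90.4 and 95.7 CPM in the RepSox libraries (log2 fold change -1.01, SE 0.168, adjusted p = 5.65e-05). DMSO replicate 2 was the highest in both, and the other DMSO libraries were still above all RepSox libraries. Without DOX 24 of the 34 fell, with a median of -0.65. Of 15 MHC class I genes 8 fell, and 5 without DMSO replicate 2, in which this list deviated by 0.38. HLA-E was at 195, 250.3 and 202 CPM in the DMSO libraries and 116, 107 and 103 CPM in the RepSox libraries (log2 fold change -0.99, SE 0.0811, adjusted p = 8.52e-09), and the light chain gene B2M fell from 1007 ± 129.7 to 630.1 ± 51 CPM (SD, n = 3). In the NF-κB and chemokine list 7 of 20 rose and 6 fell, and the membrane-bound chemokine gene CXCL16 rose from 3.6 ± 0.37 to 15.7 ± 2.3 CPM.

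Of 13 mitochondrially encoded mRNAs 3 fell, 11 without DMSO replicate 2, and 1 without DMSO replicate 3 or RepSox replicate 2. The list deviated by -0.53 in DMSO replicate 2 and by 0.41 in replicate 3, and these mRNAs held 2.75% to 5.25% of counts with DMSO and 2.76% to 3.53% with RepSox. MT-ND6, a respiratory complex I subunit gene, stood at 464, 246 and 430.3 CPM in the DMSO libraries and 226, 198 and 262 CPM in the RepSox libraries (log2 fold change -0.73, SE 0.199, adjusted p = 0.0047), and its groups overlapped through DMSO replicate 2. Other abundant genes that fell were the scaffold gene AHNAK, from 1272 ± 117 to 740.5 ± 107 CPM (SD, n = 3), the retinaldehyde dehydrogenase gene ALDH1A1, from 1787 ± 95 to 1386 ± 28 CPM, and the lysozyme gene LYZ, from 1732 ± 14 to 1290 ± 116 CPM. Among 10 microRNA host genes 3 rose and 5 fell (2 without DMSO replicate 3). MIR205HG, the host of miR-205, which is known to target ZEB1 mRNA, rose from 0.658 ± 0.16 to 5.67 ± 0.86 CPM, and MIR22HG fell from 5.36 ± 1.3 to 0.885 ± 0.11 CPM.

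RepSox was also given to HT-29 iZEB1 cells without DOX, in libraries that are not shared with this comparison. There 4290 of 16978 genes were called (25.3%), 2114 higher (12.5%) and 2176 lower (12.8%). Of the genes called with DOX, 3269 were called in the same direction without it, which is 36.9% of the calls with DOX and 76.2% of those without. Another 254 were called in opposite directions, 178 of them higher with RepSox in DOX and lower without. Across genes the 2 sets of log2 fold changes had a Pearson r of 0.495 (16978 genes, which are not independent replicates), and their SD was 0.753 with DOX and 0.456 without. Of the 1967 genes that changed at least 2-fold with DOX, 808 were called in the same direction without DOX, 68 in the opposite direction and 1091 were not called there.

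The difference between the responses was tested as an interaction, and 3834 genes (22.6%) passed, 2202 with a more positive response to RepSox in DOX (13%) and 1632 with a more negative one (9.61%). Among genes of the first kind, MAB21L4, PLA2G4F and TMPRSS4 rose with RepSox in DOX and fell with RepSox without DOX. TMPRSS4 went from 5.4 ± 0.55 to 32.7 ± 4.8 CPM (SD, n = 3) in DOX, and without DOX it stood at 104 CPM with DMSO and 53.4 CPM with RepSox (interaction log2 value 3.56, SE 0.136, adjusted p = 2.85e-12). PLA2G4F, a cytosolic phospholipase A2 gene, went from 0.24 ± 0.02 to 1.18 ± 0.2 CPM in DOX and stood at 7.76 CPM with DMSO and 1.67 CPM with RepSox without (interaction log2 value 4.49, SE 0.361, adjusted p = 4.27e-08). FGF19 and TMEM30B differed by interaction log2 values of 3.53 and 3.38. HEG1, a transmembrane mucin-like gene of cell junctions, did the reverse: it fell in DOX from 11.8 ± 0.64 to 3.92 ± 0.32 CPM and rose without DOX, from 1.08 to 2.89 CPM (interaction log2 value -3, SE 0.188, adjusted p = 1.52e-09). ZEB1, ANGPTL2 and EMP3 had more negative responses in DOX. CDH1, which rose in DOX, fell with RepSox without it (log2 -0.29, interaction log2 value 0.879, SE 0.0763, adjusted p = 1.14e-07).

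By list, the interaction was positive for 38 of 40 DNA replication genes, 29 of 35 ribosome biogenesis genes, 19 of 27 nucleotide synthesis genes and 9 of 15 epithelial transcription factor genes, and negative for none of these 4 lists' members. Of 25 tight junction genes 16 had a positive and 4 a negative interaction. It was negative for 7 of 12 TGF-β ligand genes and positive for 0, and of 21 TGF-β targets 7 had a negative and 2 a positive interaction. Of 34 interferon-stimulated genes 1 had a negative interaction. ATOH8 was not called in the interaction (adjusted p = 0.0937), with 0.203 CPM with DMSO and 0.0184 CPM with RepSox without DOX.

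**Figure D5:**
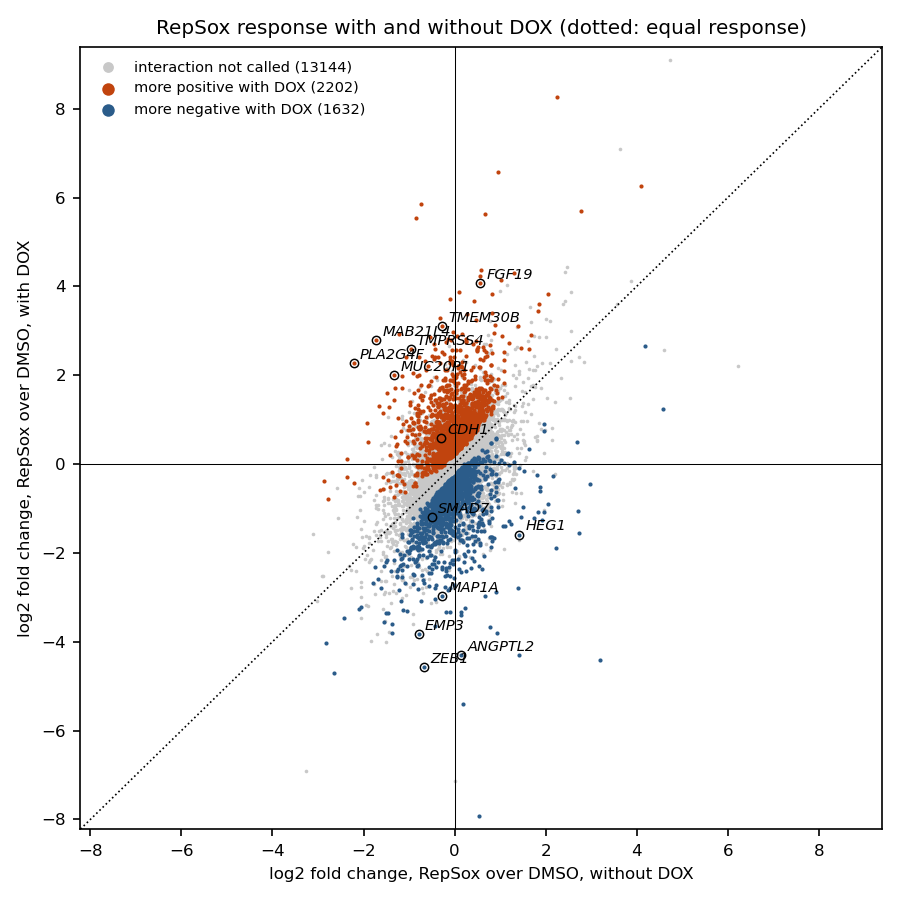
Log2 fold change of RepSox over DMSO with DOX (vertical axis) against that without DOX (horizontal axis), 1 point per gene, coloured where the interaction was called, orange for a more positive and blue for a more negative response in DOX. The dotted line marks equal responses. MAB21L4, PLA2G4F, TMPRSS4 and MUC20P1 lie in the upper left, where RepSox raised a gene in DOX and lowered it without, and HEG1 in the lower right.

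In SW620 cells 3338 of 17147 genes were called for RepSox (19.5%), 1754 higher (10.2%) and 1584 lower (9.24%). Of the 15160 genes tested in both lines, 1471 were called in the same direction in SW620 and in HT-29 iZEB1 with DOX, which is 48.8% of the shared genes called in SW620 and 18.1% of those called in HT-29 iZEB1 with DOX. Another 580 were called in opposite directions, and the Pearson r across genes was 0.219. ZEB1, which SW620 expresses without an inducer, had a log2 fold change of 0.14 (adjusted p = 0.234) there, CDH1 of 0.87 (adjusted p = 4.91e-07) and SMAD7 of -0.37 (adjusted p = 0.0293). MYC was at 0.03 (adjusted p = 0.718), AXIN2 at -0.36 (adjusted p = 7.52e-07) and BMF at -2.58 (adjusted p = 0.000151). The difference between the lines was not tested.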

How the data were processed

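RNA was sequenced from 18 libraries in 6 groups of 3, and groups were taken from the labels. The deposited values are raw, whole counts for each gene symbol. Per the submitters' processing notes, HISAT2 2.2.0 and the build GRCh38.p13 were used, with featureCounts 2.0.0, FastQC 0.11.9 and DESeq2 1.34.0. Whether counting used strand is not given in the sources used here, so reads of a gene and an antisense partner cannot be told apart. Coordinates are from GENCODE 29 (GRCh38) by symbol, for 288 of 294 named genes, and promoters from RefSeq, matched for 11166 of 16978 tested genes.

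Counts were tested in R 4.3.3 with edgeR 4.0.16, using TMM scaling, filterByExpr with a minimum count of 10, and the quasi-likelihood test with p-values adjusted over every tested gene (Benjamini-Hochberg) and a call at an adjusted p below 0.05. One fit held all 12 HT-29 iZEB1 libraries (16978 genes) and another the SW620 libraries (17147 genes). Each SE is the ratio of the unshrunken log2 fold change to the root of F. Each ± is an SD of 3 libraries, and CPM compare libraries, not genes. Replicates of the 2 groups with DOX differed beyond counting error (chi-square over its degrees of freedom from 7 to 42.6). The code was tested on simulated counts. Intervals cover counting error and this spread only.

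Genes were named by rule: ZEB1, CDH1, SMAD7, TGFBR1 and VIM; the 15 largest called rises and falls that reached 5 CPM without overlap; the 10 largest CPM differences each way; up to 6 called members of each list with at least 5 CPM; and for the interaction 8 genes each way. The members, the lists and the comparisons were chosen with earlier results of these data known, and some genes are in more than 1 list. Some members are not reported here. Alternatives were another scaling, filters, DESeq2 1.42.0, a fold threshold, a fit of 6 libraries, a replicate block and leaving out libraries.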

Additional observations from a re-analysis of the deposited data

Results flagged for a closer look

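The response to RepSox differed between cells with and without DOX for 3834 genes by the interaction test (edgeR quasi-likelihood test, adjusted p below 0.05). Dixon's test for a single outlying library was not run, since it is not applied here to groups of 3. ZEB1 differed by -3.9 on the log2 scale, CDH1 by 0.879, SMAD7 by -0.695 and TGFBR1 by -0.609. SMAD7 fell with RepSox in both settings, and TGFBR1 fell in DOX and had a log2 fold change of 0.23 without DOX (adjusted p = 0.067).

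Among genes called in the interaction with at least 5 CPM in 1 of the 4 groups, the most positive differences were those of MAB21L4 (4.52), PLA2G4F (4.49), BICDL2 (3.6), TMPRSS4 (3.56), FGF19 (3.53), TMEM30B (3.38), MUC20P1 (3.33) and C1orf210 (3.19). With DMSO without DOX they stood between 6.87 CPM (MAB21L4) and 114 CPM (FGF19), and with DMSO in DOX between 0.175 CPM (MAB21L4) and 7.18 CPM (FGF19). MUC20P1 is a copy of MUC20 and its level is uncertain. Among the same called genes, the most negative differences beside ZEB1 were those of ANGPTL2 (-4.44), SYNPO (-3.22), DOCK11 (-3.15), EMP3 (-3.03), HEG1 (-3), NAV3 (-2.71) and MAP1A (-2.7). HEG1 rose with RepSox without DOX, from 1.08 to 2.89 CPM, and NAV3 stood below 1 CPM there. Genes at such low levels without DOX have large standard errors, as for ANGPTL2 (interaction log2 value -4.44, SE 0.407, adjusted p = 2.18e-07).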

How the results depend on the processing

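Of 287 genes named for RepSox with DOX, 273 kept their direction and their side of the threshold under each alternative run for them (at most 14 per gene), 14 crossed the threshold in at least 1, and none reversed. The exceptions named in the text are VIM and the counts given there. The fit of 12 libraries called 8864 genes in all. Refits called 7869 to 8730 genes when 1 library was left out, 7993 in a fit of the 6 libraries with DOX, 8830 by DESeq2 and 8905 without DMSO replicate 2 and RepSox replicate 1, an alternative chosen after seeing the data. A test against a 1.5-fold change called 2158 genes, 1036 higher and 1122 lower. With a filter of 1 CPM, 1363 genes passed at 2-fold or more, against 1967. Scaling by library totals moved the share of higher calls from 51.3% to 43.7%. In SW620, leaving out 1 library gave 1055 to 1899 lower genes against 1584, the lowest without DMSO replicate 2. With the replicate number as a block 8948 genes were called. Same-numbered libraries did not deviate together (r = -0.362, -0.177 and 0.144), and the largest r, 0.415, was between DMSO replicate 2 and RepSox replicate 1. From so few libraries this cannot tell whether the numbers mark a shared culture or batch, and the labels do not say. With 3 libraries a group, the counts of lists with few members rest on single libraries.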
